A study of Mus musculus with 60 samples.

Results

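The genes described here lie in a window of mouse chromosome 6 that begins beside the transcription start of Mcm2. Mcm2, on the minus strand, is the gene for a subunit of the replicative helicase. As a set, the genes of the window had less RNA in an MCM2-2A line than in a line with wild-type MCM2. They were chosen from these same measurements, as every gene that starts between 88.9 and 91.55 Mb (mm10, lowest coordinate on either strand) and has at least 30 counts summed over all 60 libraries. Of 83 annotated genes that start in this window, 37 met the count minimum and are called members; 46 did not, among them 17 with no count. The members are 37 of the 28186 genes of the series that met the same minimum. Gm43903 and Gm4575, with 35 and 38 summed counts, lay just above the minimum, and Gm1965 and Gm24816, with 25 and 21, just below it.

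All cells are E14JU mouse embryonic stem cells (mESCs) in which POLE4, a subunit of the leading strand DNA polymerase, carries a degron tag (POLE4-dTAG). The tag was put separately into cells with wild-type MCM2 (WT) and into cells with the MCM2-2A mutation, which weakens the binding of MCM2 to histones, and clones were picked; the labels name clone 2 for MCM2-2A. Each line was given DMSO (Ctrl) or dTAG at 1 µM, which removes the tagged protein (dPOLE4), and RNA was sequenced after 24 h of treatment in serum with LIF (T0), after 12, 24 and 60 h of retinoic acid (RA) without LIF (T12, T24, T60), and in a separate experiment after 96 h of treatment. There were 3 libraries in each of 20 groups. With 1 MCM2-2A clone against 1 WT line, what belongs to the MCM2 mutation and what belongs to the clone cannot be told apart.

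Genes that are neighbours on a chromosome need not share a function, but they share its copy number, and part of their regulation can act over long stretches of chromatin. The window holds genes of unlike roles: Xpc, the damage sensor of nucleotide excision repair; Lsm3, a subunit of the RNA-binding LSM ring; Nup210, a membrane protein of the nuclear pore; Chchd4, the receptor for oxidative import into the mitochondrial intermembrane space; Plxna1, a semaphorin receptor; Wnt7a, a secreted Wnt ligand; and Klf15, a zinc finger transcription factor. A cluster of vomeronasal receptor genes, used by sensory neurons, lies between Txnrd3 and Chst13 and gave hardly any reads.

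Promoter windows of RefSeq (GRCm38.p6) are printed for the genes at which the lowering turned on and for 2 pairs of members that start head to head. The first pair is Abtb1, the last gene before the lowered stretch with a clear level, and Mcm2, the first gene inside it; there, capitals mark the bases from the RefSeq start on. In the other 2 windows, capitals run from the GENCODE start of 1 gene of the pair to that of the other, both bases included. Chchd4 and Tmem43 have 156 bases between their starts, and Xpc and Lsm3 have 39, so each pair would share 1 promoter window. The members 4930471M09Rik (minus strand, highest coordinate 91440912) and 1810044D09Rik (plus strand, lowest coordinate 91440987) also start head to head. Their windows are not printed.
Abtb1 (chr6:88841886-88842185, minus strand): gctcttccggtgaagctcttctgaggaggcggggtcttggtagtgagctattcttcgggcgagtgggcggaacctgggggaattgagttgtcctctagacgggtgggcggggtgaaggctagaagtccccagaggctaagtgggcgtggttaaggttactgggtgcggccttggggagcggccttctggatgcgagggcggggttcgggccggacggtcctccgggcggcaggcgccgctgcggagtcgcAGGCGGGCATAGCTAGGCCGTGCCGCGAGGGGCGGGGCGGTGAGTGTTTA
Mcm2 (chr6:88898731-88899030, minus strand): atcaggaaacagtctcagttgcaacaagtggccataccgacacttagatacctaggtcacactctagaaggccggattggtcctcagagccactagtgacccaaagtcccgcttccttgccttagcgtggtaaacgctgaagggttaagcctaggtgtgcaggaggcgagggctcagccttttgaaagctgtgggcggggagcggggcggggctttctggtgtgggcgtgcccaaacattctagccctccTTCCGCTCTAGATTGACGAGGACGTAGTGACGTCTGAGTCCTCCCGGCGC
Chchd4 and Tmem43 (chr6:91473457-91473756, plus strand): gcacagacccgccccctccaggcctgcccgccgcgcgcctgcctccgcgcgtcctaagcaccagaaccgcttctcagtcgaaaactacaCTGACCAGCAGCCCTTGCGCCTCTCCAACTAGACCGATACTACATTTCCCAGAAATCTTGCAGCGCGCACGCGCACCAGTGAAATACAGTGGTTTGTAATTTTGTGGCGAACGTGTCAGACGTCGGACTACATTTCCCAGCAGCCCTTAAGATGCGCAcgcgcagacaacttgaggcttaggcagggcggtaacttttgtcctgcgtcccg
Xpc and Lsm3 (chr6:91515785-91516084, plus strand): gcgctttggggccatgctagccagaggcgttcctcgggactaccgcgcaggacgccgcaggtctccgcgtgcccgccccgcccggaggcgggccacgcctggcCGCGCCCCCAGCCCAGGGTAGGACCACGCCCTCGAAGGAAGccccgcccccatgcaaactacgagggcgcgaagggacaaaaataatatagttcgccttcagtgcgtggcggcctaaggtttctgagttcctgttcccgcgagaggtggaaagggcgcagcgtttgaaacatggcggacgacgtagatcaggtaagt
Of the 37 members, 23 had a promoter in the RefSeq table. Their median GC content was 60.0%, against 52.7% over all 27025 genes of the table, and their median number of CpG dinucleotides was 18 against 7. The sets are unlike, since the members had passed the count minimum and the table was not filtered by level. The longest stretch that stands more than once in the window of Chchd4 and Tmem43, ACTACATTTCCCAG, begins there at positions 128 and 216 from the left end, both on the printed strand. Searched on both strands, these 14 letters stand in 0.322% of all promoters of the table (87 genes). Among the members they stand in the windows of Chchd4 and Tmem43, which overlap and hold the same stretch of DNA, the one the letters were taken from. A match of letters is a description, not a binding site.

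The depth ranged from 10461077 to 46609151 counts among the 48 libraries from T0 to T60, and from 7126100 to 23598266 among the 12 at 96 h. Levels are given as CPM, the counts of a gene relative to the total of its library after TMM scaling. All 9 stem cell markers checked reached 1 CPM in both lines at T0, where their summed level was 3649 to 3750 CPM in the WT and 4073 to 4693 CPM in the MCM2-2A libraries. No marker of fibroblasts, trophoblast or primitive endoderm was at 0 in any group looked at. At T0, the fibroblast list summed to 46.3 to 59.2 CPM in WT and 32.1 to 44.8 CPM in MCM2-2A, the trophoblast list to 15.1 to 22.9 CPM and 5.13 to 6.72 CPM, and the primitive endoderm list to 12.4 to 22.7 CPM and 33.5 to 44.9 CPM, so that the libraries of the lines did not overlap, with the first 2 lists lower and the last higher in MCM2-2A. The part of these differences in the results below was not tested. In bulk RNA, a change in the number of cells that express a gene and a change per cell cannot be told apart.

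Summed over all 37 members, the level in Ctrl cells at T0 was 627.0 ± 10.3 CPM in WT and 333.7 ± 6.0 CPM in MCM2-2A (SD, n = 3 each), a ratio of 0.532. Over all time points and treatments, the 30 WT libraries lay between 567 and 786 CPM and the 30 MCM2-2A libraries between 294 and 463 CPM, so that the lines did not overlap. The ratio of the lines was 0.516 at T12, 0.530 at T24, 0.553 at T60 and 0.570 at 96 h in Ctrl cells. In dPOLE4 cells it was 0.503, 0.529, 0.524, 0.563 and 0.574 in the same order of time. The ratio thus kept within 0.503 to 0.574, while the level itself ran from 579 to 747 CPM in WT and from 299 to 413 CPM in MCM2-2A over the RA course of Ctrl cells. The sum follows its highest members most: in Ctrl WT cells, Plxna1 alone averaged 195 CPM at T0 and 293 CPM at T60.

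**Figure D1:**
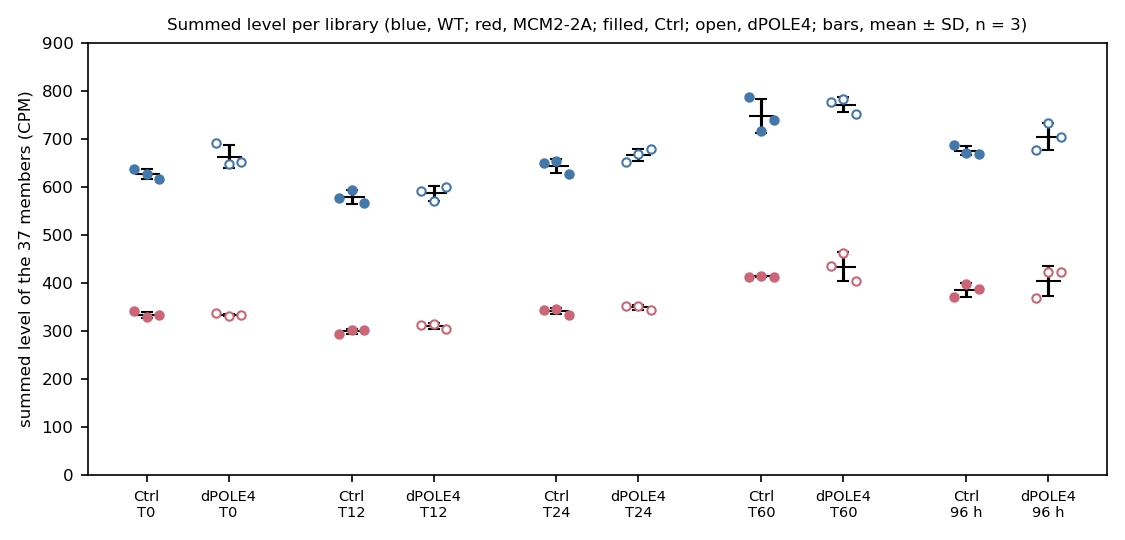
Summed level of the 37 members (CPM, y axis) in each of the 60 libraries, by treatment and time point (x axis); points are libraries and bars the mean ± SD of 3. Every MCM2-2A library lies below every WT library, with MCM2-2A between 294 and 463 CPM and WT between 567 and 786 CPM.

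Values of this comparison between lines chose the window, so they are described without a test. At T0, 23 members had enough counts for the fit, and in 21 of them all 3 MCM2-2A libraries were below all 3 WT libraries with a log2 fold change under -0.58. The same call was made for 11.2% of all 17972 features fitted; since the window was picked for it, nothing is read from that difference. The median log2 fold change of the 23 members was -1.06 (quartiles -1.29 and -0.85), a ratio of 0.478. The median was -0.02 over all features (quartiles -0.30 and 0.28) and -0.01 over the 764 other genes of chromosome 6. The level filter can pass a gene on its high group alone, but 18 members had at least 10 counts in each of the 6 libraries, and their median was -1.01. The 14 members that were too low to fit at T0 summed to 2.60 ± 0.29 CPM in WT and 1.88 ± 0.44 CPM in MCM2-2A, and 11 of them were too low in all 10 comparisons of the lines.

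Plxna1 had the highest level of the members in reads, with 209, 193 and 183 CPM in WT and 110, 107 and 107 CPM in MCM2-2A at T0. Nup210 was at 77.9, 92 and 87.7 CPM in WT and at 43.8, 46.8 and 45.5 CPM in MCM2-2A. Chchd4 was at 67.0, 63.8 and 66.9 CPM against 41.5, 35.2 and 42.4 CPM. In these 3 genes, the lines were far apart and libraries of 1 line close together, with log2 fold changes of -0.89, -0.96 and -0.76. Per kilobase of exon, Plxna1 (21.5 CPM per kb in WT at T0) was followed by Lsm3 (18.0), Chchd4 (12.7), Nup210 (8.20) and Tmem43 (7.96); the higher value of AC161456.1 is set aside, since its start overlaps the end of Lsm3 on the same strand.

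At the Mcm2 end of the window, Tpra1, a membrane protein of the G protein-coupled receptor type whose start faces that of Mcm2 at a distance of 3470 bases, was at 10.6, 9.02 and 9.82 CPM in WT and at 5.01, 5.28 and 4.22 CPM in MCM2-2A (log2 fold change -1.09). The long noncoding RNA 4933427D06Rik came next, with 5.04, 6.92 and 7.36 CPM against 1.56, 1.51 and 1.28 CPM. Its log2 fold change of -2.23 was the largest in size of the 20 members with at least 1 CPM at T0. Chchd6, a protein of the mitochondrial cristae junction, was at 14.2, 13 and 11.6 CPM in WT and at 8.18, 6.63 and 7.36 CPM in MCM2-2A (-0.84).

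At the far end, the 2 head-to-head pairs whose promoter windows are printed above were lowered on both sides. Tmem43, a protein of the inner nuclear membrane, was at 33.7, 29.9 and 31.4 CPM in WT and at 15.8, 16.2 and 15.8 CPM in MCM2-2A, a log2 fold change of -1.04 beside -0.76 of Chchd4. Xpc was at 35.0, 31.6 and 30.1 CPM against 17.3, 16.5 and 15.9 CPM. Lsm3 was at 47.6, 51.2 and 50.2 CPM against 29.0, 26.3 and 28.5 CPM. Their log2 fold changes were -1.0 and -0.87. AC161456.1, the last member, was at 14.9, 14.6 and 14 CPM against 8.84, 7.92 and 8.87 CPM (-0.80), and its reads cannot be separated from those of Lsm3 with certainty.

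**Figure D2:**
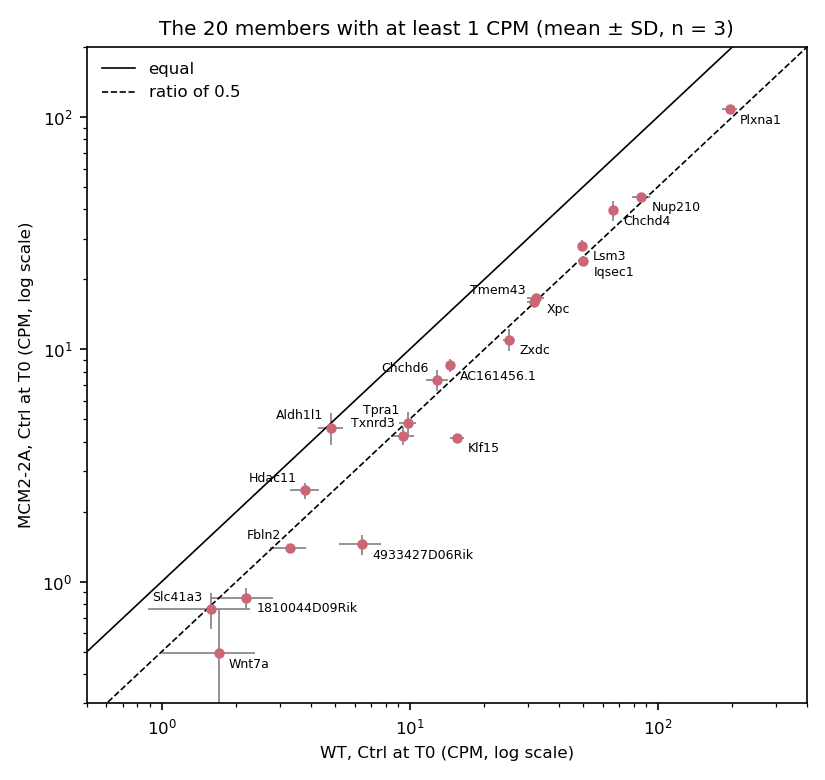
Level of the 20 members with at least 1 CPM in WT (x axis) and MCM2-2A (y axis) Ctrl cells at T0, both in CPM on log scales; points are means and bars SD of 3 libraries, the solid line marks equal levels and the dashed line a ratio of 0.5. Most members lie along the dashed line, Aldh1l1 lies near the solid line, and 4933427D06Rik (log2 fold change -2.23), Klf15 (-1.94) and Wnt7a (-1.82) lie below the dashed one.

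The members did not move by 1 factor alike. Klf15, with 15.7, 14.5 and 16.5 CPM in WT and 4.16, 4.15 and 4.2 CPM in MCM2-2A, was lower by -1.94 on the log2 scale at T0. Wnt7a was low in both lines, with 2.49, 1.25 and 1.35 CPM against 0.804, 0.302 and 0.377 CPM (-1.82). Aldh1l1, an enzyme of folate metabolism, had the smallest difference: its 5.49, 4.54 and 4.46 CPM in WT overlapped the 5.34, 4.60 and 3.89 CPM in MCM2-2A (-0.13). Hdac11, a histone deacetylase that removes fatty acyl groups, was at 3.40, 3.63 and 4.36 CPM against 2.7, 2.34 and 2.39 CPM (-0.66).

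The other 6 members with at least 1 CPM had log2 fold changes at T0 from -1.40 to -1.06. They were Txnrd3, a thioredoxin reductase (-1.19), Zxdc, a zinc finger protein (-1.25), Slc41a3, a magnesium transporter (-1.06), Iqsec1, an exchange factor for ARF GTPases (-1.11), Fbln2, an extracellular matrix protein (-1.26), and the noncoding RNA 1810044D09Rik (-1.40). In each of them, all 3 MCM2-2A libraries were below all 3 WT libraries. C030015A19Rik (-1.32) lies within Zxdc on the same strand and Cfap100 (-1.49) overlaps its end on the other strand, so their reads are uncertain. The 1 fitted member that was higher in MCM2-2A at T0 was 4930512J16Rik, a noncoding RNA at 0.566, 0.341 and 0.300 CPM in WT and at 0.662, 0.980 and 1.28 CPM in MCM2-2A (1.29), named after its values were seen. It had enough counts in 7 of the 10 comparisons of the lines and was higher in MCM2-2A in all 7 (log2 fold changes from 1.29 to 2.27).

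The lowering was present at all 5 time points. In Ctrl cells, the members' median was -0.96 at T12 (20 of 22 fitted members lower by the rule above, 9.98% of all features), -0.88 at T24 (18 of 23, 9.59%), -1.01 at T60 (19 of 23, 9.48%) and -0.96 at 96 h (15 of 21, 9.21%). In dPOLE4 cells, it was -1.04 at T0 (21 of 23, 10.4%), -0.95 at T12 (19 of 23, 9.88%), -0.91 at T24 (18 of 23, 9.62%), -0.99 at T60 (18 of 22, 11%) and -0.96 at 96 h (16 of 23, 9.04%). In each of these 10 comparisons, 0 to 2 fitted members were higher in MCM2-2A by the same rule, and the matching share of all features was not counted. The median over all features stayed between -0.02 and 0.01. The Ctrl libraries of the first 4 time points and the 96 h libraries come from separate cultures and tables. The 20 members with at least 1 CPM at T0 gave 200 log2 fold changes over the 10 comparisons. Of these, 194 were negative and 176 were under -0.58, and 12 members were under -0.58 in all 10. The matching shares of all features were not counted. All 10 comparisons set the same lines against each other, and nothing is read from these counts.

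**Figure D3:**
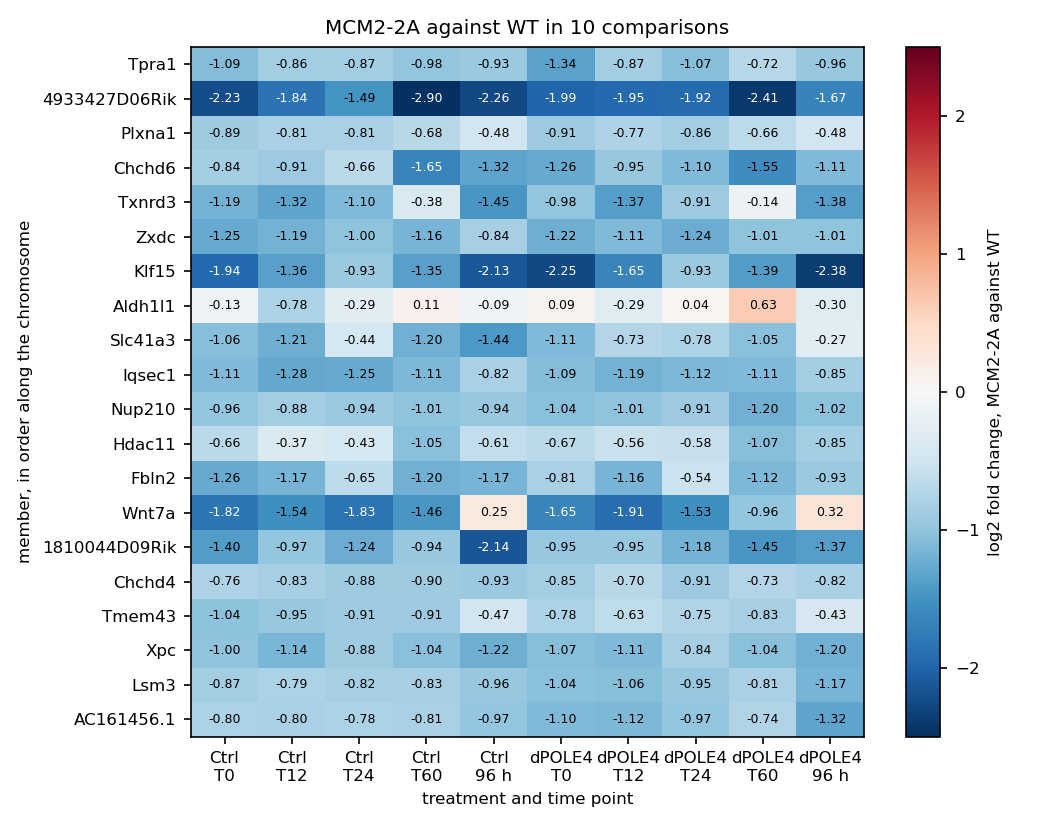
Log2 fold change of MCM2-2A against WT (colour and printed value) for the 20 members with at least 1 CPM at T0, in their order along the chromosome (y axis), in Ctrl and dPOLE4 cells at 5 time points (x axis). Blue fills nearly all of the map; Aldh1l1 in 4 of the 10 comparisons and Wnt7a at 96 h (0.25 in Ctrl and 0.32 in dPOLE4) are above 0.

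Some members departed from the common level at single time points. Plxna1 was lower by -0.89 at T0 and by -0.48 at 96 h, and Tmem43 by -1.04 and -0.47. In dPOLE4 cells at T60, Aldh1l1 was higher in MCM2-2A, at 8.08, 7.78 and 6.67 CPM against 5.93, 4.35 and 4.32 CPM in WT (0.63). Txnrd3 stood at 5.16, 5.38 and 4.90 CPM in WT and at 4.98, 3.48 and 3.66 CPM in MCM2-2A at T60, so that its libraries overlapped there (-0.38), while its other 4 values in Ctrl cells lay between -1.45 and -1.10. Wnt7a was at 0.553, 0.728 and 0.393 CPM in WT and at 0.538, 1.06 and 0.315 CPM in MCM2-2A at 96 h; these levels are low and the libraries overlap.

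For the scan below, the start of a gene is its lowest coordinate and its end the highest, whatever its strand. To place the ends of the lowering, the genes of chromosome 6 with at least 1 CPM were ordered by start, and the 1 stretch was sought that best parts their log2 fold changes into a level inside and a level outside. At T0, this stretch ran from Mcm2 (start 88883474) to Slc6a6 (end 91759066), held 22 of 673 genes, and had a median of -1.05 inside and -0.01 outside. The fit began at Mcm2 in all 5 Ctrl comparisons. It ended with Slc6a6 at T0, T12, T24 and T60, and with Gm45828, which lies within Slc6a6, at 96 h. The lowered stretch was therefore longer than the window of the members at both ends, and spanned 2.88 Mb at T0. In dPOLE4 cells, the first gene was Mcm2 at T0, T12 and T24, Podxl2 at T60 and Chchd6 at 96 h, and the last was Slc6a6 or Gm45828 at all 5 time points. Podxl2 and Gm45828 were named after their values were seen.

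**Figure D4:**
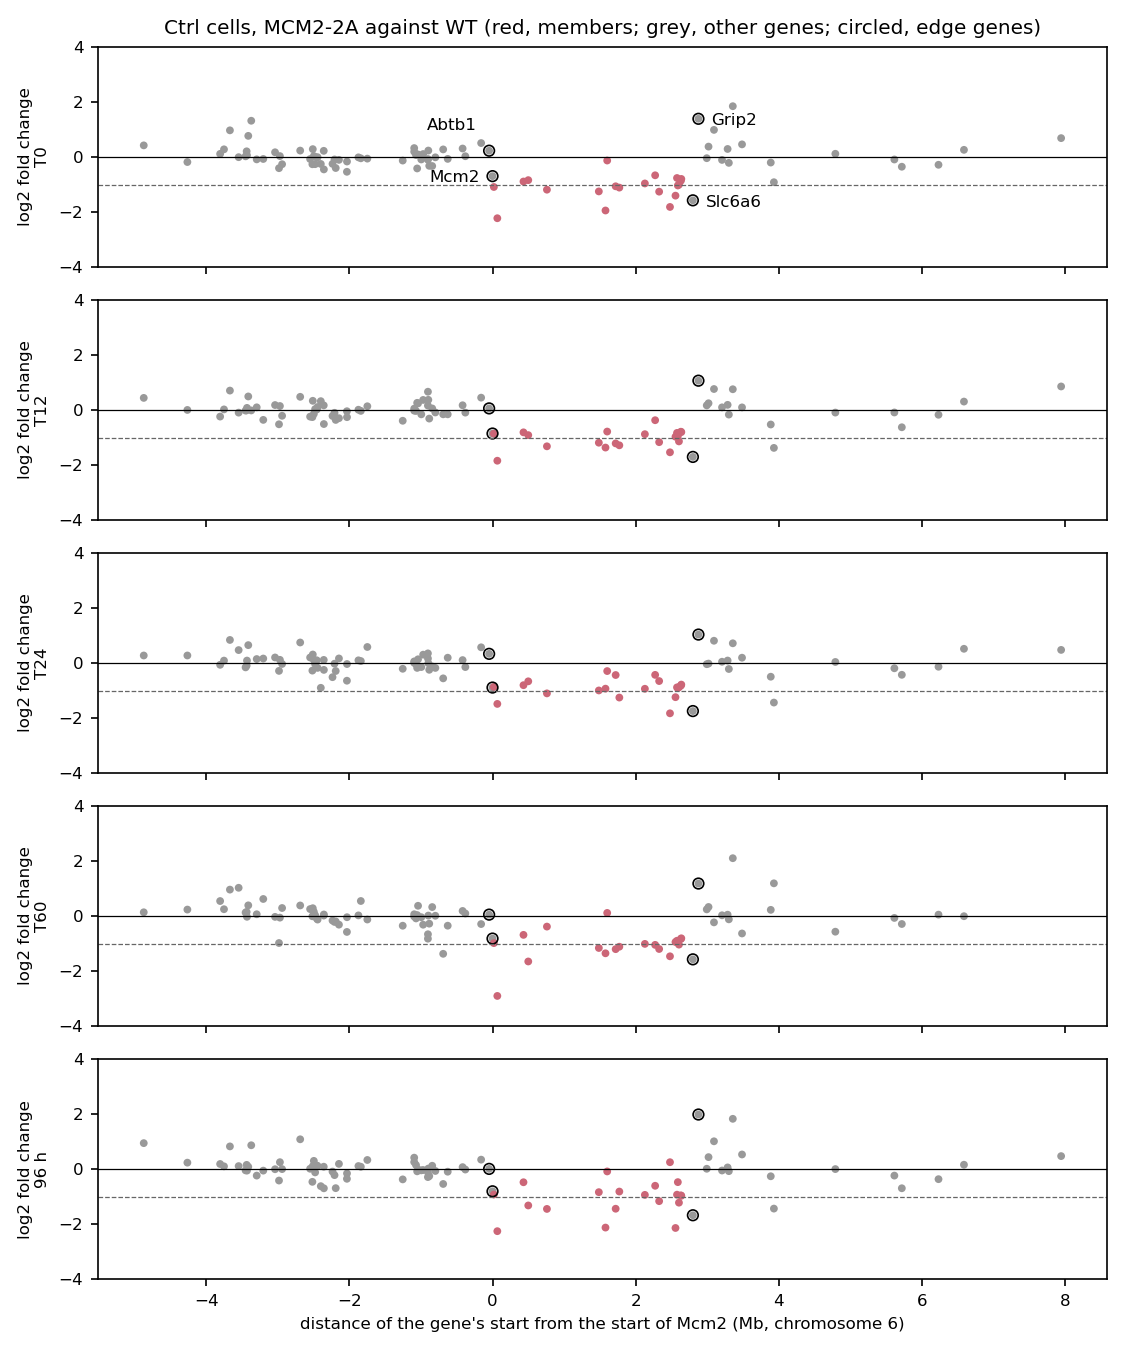
Log2 fold change of MCM2-2A against WT in Ctrl cells (y axis) at 5 time points (panels), against the distance of each gene's start from the start of Mcm2 in Mb (x axis, lowest coordinates), for genes with at least 1 CPM at T0; red points are members, grey points other genes, circles mark Abtb1, Mcm2, Slc6a6 and Grip2, and the dashed line marks -1. Values drop from about 0 to the dashed line at Mcm2 and return between Slc6a6 (-1.58 at T0) and Grip2 (1.39 at T0).

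On the Mcm2 side, the change in level fell between neighbouring genes. Abtb1, a BTB domain protein, lies from 88835914 to 88841984 on the minus strand, as Mcm2 does. It was at 20.4, 20.1 and 18.9 CPM in WT and at 26.1, 23.8 and 22.0 CPM in MCM2-2A (log2 fold change 0.23). Mcm2, from 88883474 to 88898780, was at 487, 493 and 504 CPM in WT and at 356, 290 and 296 CPM in MCM2-2A. Its log2 fold change was -0.70 at T0, -0.85 at T12, -0.89 at T24, -0.82 at T60 and -0.81 at 96 h. Podxl2, a sialomucin-like membrane protein, lies between Abtb1 and Mcm2 and was at 0.922 CPM on average at T0; its log2 fold changes in Ctrl cells were 0.45, -0.32, 0.44, -0.52 and 0.29 in order of time. Further out, the values at T0 were 0.51 for Mgll, 0.03 for Sec61a1, 0.31 for Ruvbl1 and -0.07 for Eefsec.

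On the far side, no gene with enough counts starts between AC161456.1, the last member, and Slc6a6. Slc6a6, the taurine transporter (91684053 to 91759066), was at 214, 222 and 215 CPM in WT and at 81.5, 72.4 and 71.0 CPM in MCM2-2A. It was lowered more than most members at every time point, with log2 fold changes in Ctrl cells between -1.75 and -1.57. The next gene is Grip2, a scaffold protein of glutamate receptors, on the minus strand. Its lowest coordinate is 91761509, with 2442 bases between it and the end of Slc6a6. Grip2 was higher in MCM2-2A, at 0.793, 0.738 and 0.751 CPM in WT and 2.03, 1.66 and 2.34 CPM in MCM2-2A (1.39 at T0, and from 1.04 to 1.98 at the other times). Ccdc174, at 91878053, was at 17.2, 17.2 and 18.6 CPM against 17.9, 16.4 and 18.4 CPM (-0.04), and beyond it the values at T0 were 0.38 for 4930590J08Rik, 0.99 for Fgd5 and -0.11 for Nr2c2.

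Stretches of equal length on either side were not lowered as a whole. Of the 40 genes with at least 1 CPM in the 2.88 Mb before Mcm2, 0 were lower by the same rule at T0 and the median was -0.05. In the 2.88 Mb past Slc6a6, 0 of 14 were lower and 3 were higher, with a median of 0.04. Inside, 21 of 22 genes were lower. The same call was made for 11.2% of all features at T0. The inside stretch was found from these same values, so its contrast with the flanks was set in advance and is only a description. At the other time points, 0 to 3 genes of the left flank and 1 or 2 of the right flank were lower, beside 9.21 to 9.98% of all features. Pole4, whose product is the tagged protein, lies outside both flanks (82618992 to 82705365) and was at 50.3, 54.7 and 51.5 CPM in WT and 34.8, 32.6 and 33.1 CPM in MCM2-2A at T0; its log2 fold change of -0.68 (SE 0.06) had an adjusted p of 2.96e-06 by edgeR's quasi-likelihood test. At the other times, Pole4 stood at -0.75 (T12, adjusted p = 7.16e-05 by edgeR), -0.61 (T24, 6.5e-07), -0.22 (T60, 0.0495, not DE) and -0.95 (96 h, 1.48e-05), while the median of the members lay between -1.01 and -0.88. The part of lower Pole4 RNA in the members' values was not tested.

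The members were next followed within each line. The choice of the window used no contrast within a line, but the Ctrl libraries of these contrasts are among those whose values chose it. DE (differentially expressed) stands for an adjusted p under 0.01 by edgeR together with a change beyond 0.58 on the log2 scale. Upon POLE4 depletion, 0 of 223 tests of members over 10 comparisons gave a DE call. An unadjusted p below 0.05 by edgeR was reached by 0 to 3 of the members in WT and 5 or 6 in MCM2-2A at each time point. Among all features, the same limit was passed by 1150 of 17914 (T12) to 2446 of 17116 (T60) in WT. In MCM2-2A it was passed by 2004 of 17421 (96 h) to 4302 of 18473 (T60), so the share of all features differed between the lines too. Of all features, 0% were DE in WT at T0, T12, T24 and 96 h and 0.193% at T60, and in MCM2-2A 0.0715% at T0, 0.404% at T12, 1.02% at T24, 2.25% at T60 and 0.304% at 96 h. Replicate numbers pair the libraries in 5 of these comparisons, and with the number as a block the DE features were 6 in place of 0 in WT at T0, 14 in place of 0 at T24 and 142 in place of 0 at 96 h, and in MCM2-2A 143 in place of 13 at T0 and 307 in place of 53 at 96 h; 1 member was then DE in WT at 96 h and 1 in MCM2-2A at 96 h. The median change of the members lay between -0.02 and 0.11. DESeq2 called 1 member in WT and 1 in MCM2-2A, which was Aldh1l1 in both, at 96 h and at T60.

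Aldh1l1, whose libraries overlapped between lines at T0 but not at T12 (-0.78), had the lowest adjusted p of these tests. It and Slc41a3 are described here after their values were seen. At 96 h in WT it was at 7.94, 8.01 and 6.51 CPM in Ctrl and 12.2, 12.4 and 11 CPM in dPOLE4, a log2 fold change of 0.68 (SE 0.13, adjusted p = 0.11 by edgeR). Replicate numbers pair the libraries in this comparison, and with the number as a block the adjusted p was 0.000217. In MCM2-2A, its log2 fold change was 0.71 at T12, 0.75 at T24 and 0.70 at T60, with adjusted p of 0.0741, 0.0122 and 0.0255 by edgeR. Slc41a3 in MCM2-2A at 96 h, also a paired comparison, was at 0.808, 0.993 and 0.577 CPM in Ctrl and 1.75, 1.93 and 2.35 CPM in dPOLE4 (log2 fold change 1.35, SE 0.30, adjusted p = 0.0784 by edgeR, and 0.00605 with the block). Whether the effect of POLE4 depletion on members differed between the lines was not tested.

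Upon RA, the members followed courses of their own. At T60, 10 members rose and 6 fell among 23 in WT (50.6% of all features DE), and 9 rose and 6 fell among 23 in MCM2-2A (47.5%). Of these, 13 were DE in both lines, all 13 in the same direction, 9 of them up and 4 down. The share of all features that were DE in both lines in the same direction was not counted, so nothing is read from that number. Earlier time points held fewer calls: in WT, 1 of 22 members at T12 (11.3% of all features) and 3 of 23 at T24 (21.8%), and in MCM2-2A, 1 of 21 at T12 (8.65%) and 4 of 21 at T24 (23.9%).

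Wnt7a rose from 1.25 to 2.49 CPM at T0 to 8.88, 6.54 and 6.13 CPM at T60 in WT, a log2 fold change of 2.10 (SE 0.24, adjusted p = 1.58e-06 by edgeR). In MCM2-2A it rose from 0.302 to 0.804 CPM to 2.15, 2.63 and 3.30 CPM, by 2.46 (SE 0.32, adjusted p = 1.55e-05). Both lines thus raised Wnt7a severalfold, from levels that did not overlap at T0 and at T60. Slc41a3 rose in both (1.26 in WT and 1.13 in MCM2-2A), as did Iqsec1 (1.12 in both), Hdac11 (1.15 and 0.78), Tmem43 (0.76 and 0.89), Plxna1 (0.59 and 0.80), Tpra1 (0.93 and 1.05) and Fbln2 (1.06 and 1.12).

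Chchd4 fell between T0 and T60, to 26.2, 24.7 and 29.5 CPM in WT (log2 fold change -1.30, SE 0.08, adjusted p = 5.91e-10 by edgeR) and to 14.5, 13.6 and 15.9 CPM in MCM2-2A (-1.43, SE 0.09, adjusted p = 8.56e-09). Its head-to-head neighbour Tmem43 rose at the same time, while Lsm3 fell (-0.76 and -0.72) beside Xpc, which was not DE. So the genes of these pairs were lowered together in MCM2-2A, the measure that chose the window. In RA, Chchd4 and Tmem43 moved in opposite directions, and of Xpc and Lsm3 only Lsm3 was DE. AC161456.1 fell in both lines as well (-0.83 and -0.84), and Txnrd3 fell in WT (-0.88, SE 0.14, adjusted p = 5.44e-05 by edgeR). The noncoding RNA 1810044D09Rik fell in WT (-1.37, SE 0.37, adjusted p = 0.00347 by edgeR), a call that was lost without WT replicate 3 of T0 (adjusted p = 0.0233) or without WT replicate 2 of T60 (0.0132). Chst13, a carbohydrate sulfotransferase, rose in WT by 2.84 (SE 0.67, adjusted p = 0.00127 by edgeR) from very few counts.

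At T24, the noncoding RNA 4933427D06Rik rose in both lines, by 0.62 in WT (SE 0.15, adjusted p = 0.00297 by edgeR) and by 1.33 in MCM2-2A (SE 0.22, adjusted p = 0.000197). The WT call was lost without WT replicate 1 of T0 (0.46, adjusted p = 0.014) or without WT replicate 2 of T24 (0.47, adjusted p = 0.0194). In MCM2-2A, it also passed at T12 (0.92, SE 0.22, adjusted p = 0.0095 by edgeR), and that call was lost without any 1 of the 6 libraries (adjusted p from 0.0143 to 0.0668). Slc41a3 rose in MCM2-2A at T24 (1.09, SE 0.27, adjusted p = 0.00388 by edgeR), which did not hold without replicate 2 or 3 of T0 or without replicate 1 or 3 of T24 (adjusted p from 0.0137 to 0.017). Cfap100, a protein of motile cilia, fell in WT at T24 (-1.37, SE 0.39, adjusted p = 0.00873 by edgeR), and without replicate 1 or 3 of T0 or of T24 the adjusted p lay between 0.0324 and 0.0537.

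Some members changed from levels of a few counts. The noncoding RNA Gm6507 had 1 count at T0 and 51 at T60 over the 3 WT libraries, a ratio of 75.9 with a 95% interval for counting error from 13 to 3057. At T60 it was at 1.86, 0.986 and 0.849 CPM in WT and 1.39, 0.877 and 0.980 CPM in MCM2-2A, where it rose by 3.12 (SE 0.47, adjusted p = 5.97e-05 by edgeR). Its levels at T60 overlapped between lines. 4930512J16Rik fell in MCM2-2A to 0.0957, 0.325 and 0.0516 CPM (-2.44, SE 0.49, adjusted p = 0.000634 by edgeR), and in WT it had 0 counts in all 3 libraries at T60 and was not fitted.

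Klf15 (ENSMUSG00000030087, 90462576 to 90475238, plus strand) fell in both lines. In WT it went from 15.7, 14.5 and 16.5 CPM at T0 to 4.69, 3.67 and 4.16 CPM at T24, a log2 fold change of -1.91 (SE 0.11, adjusted p = 4.76e-09 by edgeR), and was already lower at T12 (-1.15, adjusted p = 2.84e-05). In MCM2-2A it went from 4.16, 4.15 and 4.2 CPM to 2.26, 2.37 and 1.66 CPM, by -0.92 (SE 0.18, adjusted p = 0.000698). The gap between lines was thus -1.94 at T0 and -0.93 at T24. Since this gap is the measure that chose the window, whether it changed with time was not tested.

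Chchd6 (ENSMUSG00000030086, 89383146 to 89595652, minus strand) was DE at T60 in MCM2-2A and not in WT, and its RA course is described after its values were seen. In WT it stood at 12.4, 12.2 and 13.3 CPM at T60, close to its 11.6 to 14.2 CPM at T0, and in MCM2-2A it fell from 6.63 to 8.18 CPM to 4.40, 3.51 and 4.44 CPM (log2 fold change -0.85, SE 0.14, adjusted p = 0.000128 by edgeR). The gap between lines was -0.84 at T0 and -1.65 at T60, and its change was not tested, for the same reason. The summed stem cell markers at T60 were 317 to 414 CPM in WT and 743 to 924 CPM in MCM2-2A, and the fibroblast list summed to 359 to 505 CPM in WT and 169 to 184 CPM in MCM2-2A. The trophoblast list summed to 71.0 to 85.6 CPM and 35.0 to 40.3 CPM, and the primitive endoderm list to 275 to 341 CPM and 503 to 562 CPM, in the same order. Their part in the values at T60 was not tested.

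**Figure D5:**
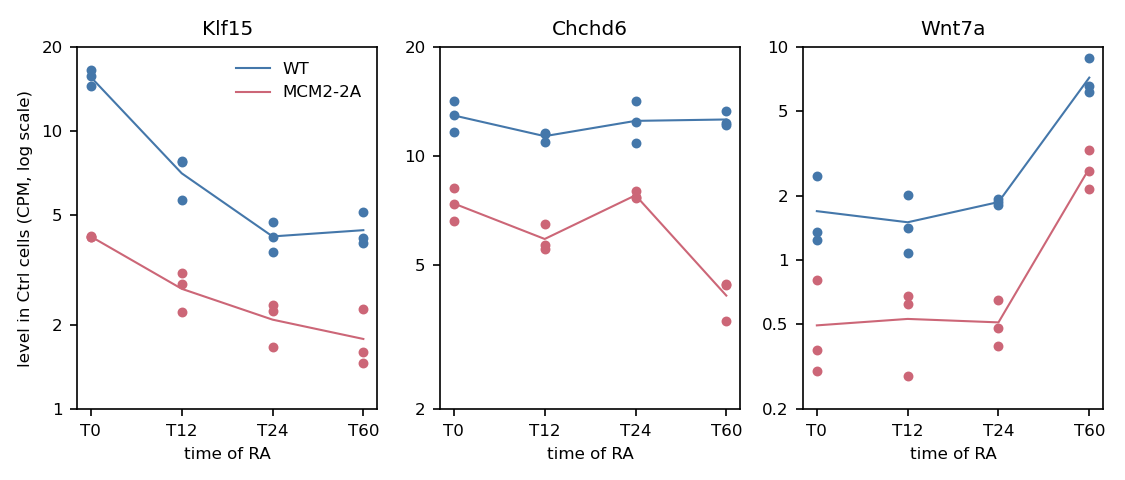
Level of Klf15, Chchd6 and Wnt7a in Ctrl cells (CPM, log scale, y axis) at T0, T12, T24 and T60 of RA (x axis), in WT (blue) and MCM2-2A (red); points are libraries and lines join the means of 3. Klf15 falls in both lines, Chchd6 falls between T24 and T60 in MCM2-2A while WT stays between 12.2 and 13.3 CPM at T60, and Wnt7a rises in both lines.

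Genes that work with a member but lie elsewhere in the genome were compared between lines in Ctrl cells at T0, where 9.83% of all features were DE higher and 9.06% DE lower in MCM2-2A. An unadjusted p below 0.05 by edgeR was reached by 9586 of the 17972 features. Of 21 genes of nucleotide excision repair besides Xpc, 1 was higher and 1 lower, with a median log2 fold change of 0.08 and 11 with an unadjusted p below 0.05. Ercc5, the 3′ incision nuclease, was at 25.6 ± 1.8 CPM in WT and 40.5 ± 1.4 CPM in MCM2-2A (SD, n = 3 each), a log2 fold change of 0.63 (SE 0.07, adjusted p = 3.09e-05 by edgeR). Ercc4, a subunit of the 5′ incision nuclease, was at 38.4 ± 0.49 CPM and 24.9 ± 1.2 CPM (-0.66, SE 0.06, adjusted p = 7.8e-06 by edgeR). Of 7 LSM genes besides Lsm3, edgeR and DESeq2 called 0 (median 0.13, 2 with an unadjusted p below 0.05). Of 13 genes of mitochondrial intermembrane space import besides Chchd4, both tools called 0 as well (median 0.16, 6 with an unadjusted p below 0.05).

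Of 25 other nuclear pore genes, 1 was higher: Aaas, a scaffold protein of the cytoplasmic face, at 81.4 ± 1.8 CPM in WT and 137 ± 13 CPM in MCM2-2A (0.71, SE 0.06, adjusted p = 1.88e-06 by edgeR), with a list median of 0.07. Of 10 other histone deacetylase genes, 1 was higher, Hdac10, at 4.73 ± 0.41 CPM and 7.78 ± 0.43 CPM (0.67, SE 0.13, adjusted p = 0.00102 by edgeR), with a list median of -0.05. An unadjusted p below 0.05 by edgeR was found for 8 of these 10. The median over all features was -0.02. Beside these list medians, the members themselves had log2 fold changes of -1.0 (Xpc), -0.87 (Lsm3), -0.96 (Nup210), -0.76 (Chchd4) and -0.66 (Hdac11), which had chosen the window and are repeated as a description.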

How the data were processed

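RNA was extracted from biological triplicates, depleted of ribosomal RNA and sequenced as strand-specific 100-base read pairs. The authors trimmed reads with cutadapt 4.2, aligned them to mm10 with STAR and counted them with TEcount on GENCODE M25 genes and repeats; the strand setting is not given in the sources used here. The deposited values are raw counts, 1 table for the 48 libraries from T0 to T60 and 1 for the 12 at 96 h, which were fitted apart and not tested against each other.

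Gene symbols and positions came from GENCODE M21 (GRCm38); 346 gene identifiers had no position. The members, gene lists and tests were chosen with earlier results of these data known. In R 4.3.3, low features were removed in each comparison by filterByExpr (a count of 10 and a total of 15 as its limits), and the rest was scaled with TMM and fitted with edgeR 4.0.16 by the quasi-likelihood test, each comparison on its own libraries, with Benjamini-Hochberg adjustment over all features; DE meant an adjusted p below 0.01 and a log2 fold change over 0.58 in size. Values of the lines against each other chose the window and were not tested for members; planned tests of whether the RA response or the effect of POLE4 depletion differed between lines are differences of those values and are not reported. P-values measure the spread between these cultures. Genes were named by a rule: the 4 members nearest each end with at least 1 CPM, the 3 highest, the 3 with the largest and the 3 with the smallest change between lines, and the 3 largest DE changes in each direction of each tested comparison, the 6 genes next to each end, Mcm2 and Pole4, and up to 3 DE genes of each partner list; other genes were named after their values were seen. Same-numbered libraries deviated together in 8 of 26 comparisons (every pair over 0.1; pair correlations from -0.32 to 0.45). Alternatives were DESeq2 1.42.0, its size factors, TMM from genes only, other filters, a replicate block and leaving out each library. The scripts were tested on simulated data. Promoters came from RefSeq (GRCm38.p6). Intervals cover counting error only.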

Additional observations from a re-analysis of the deposited data

How the results depend on the processing

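The median log2 fold change of the members between lines in Ctrl cells at T0 was -1.01 with 10 counts in every library, -0.98 with no filter and -1.0 for members with at least 5 CPM, against -1.06. At T60 it was -0.90 with no filter. For members that overlap no other gene, an alternative chosen after seeing the data, it was -1.14 at T12 and -1.19 at 96 h. Leaving out 1 library gave medians from -1.10 to -0.97 at T0, from -1.07 to -0.89 at T12, and from -1.0 to -0.91 at 96 h. The lowered stretch ended at 91759066 at 96 h among genes with at least 5 CPM, and its first gene at T12 began at 88842558 (Podxl2) without MCM2-2A replicate 1 of T12 and at 88883474 (Mcm2) when any other 1 library was left out.

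Upon POLE4 depletion, DESeq2, no filter and the replicate block gave 1 DE member each in WT, and 1, 3 and 2 in MCM2-2A. Without 1 library there were 0 or 1 in MCM2-2A, the 1 without MCM2-2A dPOLE4 replicate 3 of T60. Upon RA in MCM2-2A at T12, there were 0 DE members with DESeq2, DESeq2 size factors, TMM from genes only, the replicate block, and without any 1 library. Of the RA calls of members named by the rule, the replicate block ended those of 4933427D06Rik at T12 in MCM2-2A and Cfap100 at T24 in WT and no other. Differences of responses between lines, and the alternatives planned for them, are not reported. Beside the leave-one-out fits, 126 values of the summaries were unchanged in call or within the spread and 17 moved, and for named genes 110 kept their call and 7 lost it. In the leave-one-out fits, 172 values of the summaries were unchanged and 14 moved, and for named genes 105 kept their call and 18 lost it. In both sets, 0 results reversed. Depth limits what can be said of the 14 members not fitted at T0. The cause of these changes was not tested.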
